A study of Homo sapiens with 8 samples.

Results

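The RNA exosome subunits were examined through the guides that target them in a genome-wide knockout screen. All guides whose target symbol is EXOSC1 to EXOSC10 were taken, which gave 60 of the 119461 guides, 6 for each of the 10 genes. The screen used MB157R, a triple-negative breast cancer line derived from MB157 by long exposure to a γ-secretase inhibitor (GSI), which blocks the cleavage that activates Notch receptors. The cells carried Cas9 and the human GeCKOv2 library in its A and B parts, so every group shared the Cas9 expression, the puromycin selection and the acquired resistance. The groups were the pool at the start (T0, day 0, 2 libraries), cells kept with the vehicle DMSO until day 14 (3 libraries), and cells kept with the GSI LY3039478 at 10 µM until day 14 (3 libraries). All cultures came from a single transduced pool of a single resistant line, and the T0 libraries are aliquots of that pool. Per the study's methods, these aliquots were taken after the puromycin selection, in cells that already carried Cas9. Guide losses before that point do not show in fold changes against T0. Guide counts in genomic DNA carry no expression values, so the labelled cell type could not be checked against markers.

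The RNA exosome is the main machine that degrades RNA from its 3′ end in human cells. Its core is a barrel of RNase PH-like proteins, EXOSC4, EXOSC5, EXOSC6, EXOSC7, EXOSC8 and EXOSC9, closed by a cap of RNA-binding proteins, EXOSC1, EXOSC2 and EXOSC3. This core has no catalytic activity of its own in humans: RNA is threaded through it to the nuclease DIS3 or DIS3L, while EXOSC10 adds a further exonuclease in the nucleus. The complex trims ribosomal RNA precursors, removes faulty and short-lived nuclear transcripts, and degrades mRNA in the cytoplasm. In a dropout screen, guides that disrupt a gene needed for growth become rarer over time.

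In the GENCODE annotation of GRCh38, EXOSC2 and EXOSC3 both lie on chromosome 9 and the other subunit genes each lie on a chromosome of their own. EXOSC6 (chromosome 16, 70246778 to 70251940) has a single exon with 272 codons. EXOSC10 (chromosome 1, 11066618 to 11099869) has the longest coding sequence, with 25 exons and 885 codons. The other coding sequences run from 195 codons in EXOSC1 (chromosome 10, 97435909 to 97446017) to 439 in EXOSC9 (chromosome 4, 121801318 to 121817021). The cut position of each guide within its gene is not given in the count table. Of the 60 guides, 58 had a mean count of at least 10 over the 8 libraries and were tested. The remaining pair, HGLibA_15792 against EXOSC8 and HGLibB_15766 against EXOSC6, had mean counts of 8.38 and 2.12.

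Total counts per library ran from 12052218 in DMSO replicate 3 to 18212884 in GSI replicate 1. The reads are PCR copies with no molecular identifiers, so depth bears on counting error alone. In GSI replicate 1 a single guide outside the exosome took 38.8% of all counts, against at most 1.52% in the others. Over all guides, the T0 aliquots differed from each other more than the day 14 cultures did. Among the 58 exosome guides, 24 (41.4%) differed more than 4-fold between T0 replicates 1 and 2, against 33.5% of all guides of genes. Between pairs of DMSO libraries 8 to 15 of the 58 did so (13.8% to 25.9%, against 14.2% to 16.7% of all guides), and between pairs of GSI libraries 7 or 8 (12.1% to 13.8%, against 7.33% to 10.3%). Of the 60 exosome guides, 3 and 7 had a count of 0 in T0 replicates 1 and 2, 2, 8 and 5 in the DMSO libraries, and 0, 5 and 2 in the GSI libraries. Over all guides the share at 0 was 5.12% and 11.5% at T0, 2.64% to 3.94% with DMSO and 0.738% to 2.4% with GSI. The subunits' medians against T0 are therefore also given without either aliquot.

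The comparison of DMSO with T0 addressed which gene losses slow these cells when no inhibitor is present. No exosome subunit passed the test, yet guides against 8 of the 10 subunits had a negative median log2 fold change, against 49.6% of all genes. EXOSC5, EXOSC8 and EXOSC4 had the most negative medians, at −1.37, −1.27 and −0.90. EXOSC9 and EXOSC6 had positive ones, at 0.49 and 0.07. Each gene value is the middle one of its guides' log2 fold changes. Guides to 1 gene share their target and are no replicates of a condition.

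Over the 58 guides the median log2 fold change was −0.71, with quartiles of −1.76 and 0.33, against −0.0024 for all guides of genes. A negative value was found for 39 of the 58 (67.2%), against 50.1% of all guides. A fold change under −1 was found for 24 (41.4%), against 17.8%. All 3 DMSO libraries lay below both T0 libraries for 13 of the 58 guides, against 13.2% of all guides, and above both for 7, against 14.9%. For comparison, the median was −0.97 over 441 guides against cytosolic ribosomal proteins, 0.09 over 2188 guides against olfactory receptors and 0.25 over 999 non-targeting controls.

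Robust rank aggregation (RRA) on edgeR guide tests called 0 of the 10 subunits on either side at an adjusted p under 0.05. Over all 18570 genes tested it called 0.0323% lower and 0% higher. Before adjustment, 4 subunits had p under 0.05 on the low side, against 6.12% of genes, and 0 on the high side, against 5.3%. These were EXOSC5, EXOSC8, EXOSC4 and EXOSC2, with p from the exact distribution of the RRA statistic of 0.00738, 0.0282, 0.0435 and 0.0482 and adjusted p of 0.447, 0.683, 0.789 and 0.809. RRA on DESeq2 guide tests also called 0. edgeR on counts summed per gene called EXOSC5 lower (log2 fold change −1.70, adjusted p = 0.0257), against 0.517% of genes called lower and 0.0269% called higher. Mean normalized counts were below both T0 libraries in every DMSO library for 4 of the 10 subunits, EXOSC1, EXOSC5, EXOSC8 and EXOSC9, against 17.1% of all genes, and above both for 0, against 12.4%.

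The median over exosome guides was −0.15 without T0 replicate 1, when all guides stood at 0.20, and −0.51 without T0 replicate 2, when all guides stood at 0.09. Scaling to the non-targeting controls put the exosome guides at −0.98 and all guides at −0.26.

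Among the barrel subunits, EXOSC5 (chromosome 19, 41386371 to 41397362) had the lowest p in DMSO against T0. Its mean normalized counts per guide, which are raw counts divided by the size factor of the library, were 117 and 200 at T0, 41.3, 57.0 and 48.2 in the DMSO libraries, and 43.3, 45.3 and 83.9 in the GSI libraries. All day 14 libraries were below both T0 libraries. Its 6 guides did not move alike. HGLibB_15763 had raw counts of 237 and 691 at T0, 63, 133 and 54 with DMSO and 62, 164 and 143 with GSI, and HGLibB_15762 had 136 and 403, then 16, 4 and 48, then 2, 50 and 80. Both were lower in every day 14 library than at T0, with log2 fold changes of −2.35 (unadjusted p = 0.00428 from edgeR) and −3.30 (unadjusted p = 0.0131 from edgeR) in DMSO against T0. HGLibA_15785 instead had a count of 0 in both T0 libraries and counts of 6, 65 and 15 with DMSO and 16, 17 and 75 with GSI.

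The guides HGLibA_15783, HGLibA_15784 and HGLibA_15785 against EXOSC5 were all at 0 in T0 replicate 2. Without T0 replicate 1, the median of EXOSC5 turned from −1.37 to 3.05 in DMSO against T0, and from −1.21 to 3.36 in GSI against T0. Without T0 replicate 2 the medians were −1.31 and −1.05. The sign of the EXOSC5 median over guides thus changed with the T0 aliquot used. By mean normalized counts, both T0 libraries (117 and 200) stood above every day 14 library.

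EXOSC8 (chromosome 13, 36998816 to 37025881) was the subunit whose tested guides all had a negative fold change in DMSO against T0, 5 of 5, from −3.55 to −0.47. Mean normalized counts per guide were 148 and 180 at T0, 104, 56.5 and 40.1 with DMSO, and 80.0, 73.9 and 71.4 with GSI. The day 14 libraries lay below both T0 libraries in each arm. The guide HGLibB_15771 had raw counts of 168 and 318 at T0, 14, 35 and 8 with DMSO, and 14, 49 and 22 with GSI. Its log2 fold change was −3.55 in DMSO against T0 (unadjusted p = 0.00319 from edgeR) and −3.03 in GSI against T0 (unadjusted p = 0.00283 from edgeR). The median of EXOSC8 kept its direction without T0 replicate 1 (−1.28 in DMSO against T0, −1.23 in GSI against T0) and without T0 replicate 2 (−1.04 and −0.90). The untested guide HGLibA_15792 had counts of 17 and 36 at T0 and 0 to 6 in the day 14 libraries.

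EXOSC4 (chromosome 8, 144078648 to 144080648) had mean normalized counts per guide of 83.0 and 178 at T0, 67.9, 86.2 and 64.0 with DMSO, and 101, 58.3 and 77.8 with GSI, so the groups overlapped. A single guide, HGLibB_15759, stood apart from the other 5. Its raw counts were 137 and 238 at T0, 5, 0 and 0 with DMSO, and 12, 0 and 5 with GSI. The fold change of this guide was −6.48 in DMSO against T0 (unadjusted p = 0.00257 from edgeR) and −4.61 in GSI against T0 (unadjusted p = 0.00951 from edgeR). The other EXOSC4 guides ranged from −1.88 to 0.07 in DMSO against T0. Without T0 replicate 1 the median of EXOSC4 was −1.06 in DMSO against T0 and −0.82 in GSI against T0, and without T0 replicate 2 it was −0.26 and 0.098.

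EXOSC6 likewise had a few guides far below the others. Its mean normalized counts per guide were 125 and 70.4 at T0, 65.1, 56.5 and 75.9 with DMSO, and 74.9, 56.9 and 62.7 with GSI, with overlap between T0 and DMSO as well as between T0 and GSI. The guide HGLibB_15764 had raw counts of 17 and 138 at T0, 0 in all 3 DMSO libraries, and 1, 0 and 1 with GSI. Against the floor of 3 counts per library, it was at least 23.1-fold lower with DMSO than the mean of the T0 libraries. Their normalized counts were 14.2 and 131, so this bound leans on T0 replicate 2 and does not hold for T0 replicate 1. The guide HGLibA_15788 had raw counts of 445 and 62 at T0, 3, 54 and 94 with DMSO, and 18, 27 and 13 with GSI. The other 3 tested guides had log2 fold changes of 0.07, 0.46 and 1.02 in DMSO against T0. Hence the median over guides was 0.07 with DMSO while the RRA p on the low side was 0.0688 (adjusted p = 0.868). The median of EXOSC6 turned to −0.19 with size factors from the non-targeting controls, to −0.15 without T0 replicate 1, to −0.80 without T0 replicate 2 and to −0.20 without DMSO replicate 2. In GSI against T0 it moved from −0.049 to −0.62 without T0 replicate 1 and to −0.92 without T0 replicate 2.

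EXOSC7 (chromosome 3, 44975241 to 45036066) had mean normalized counts per guide of 95.0 and 79.1 at T0, 62.3, 58.5 and 91.9 with DMSO, and 73.2, 61.1 and 79.9 with GSI. The groups overlapped, and the medians were −0.62 and −0.63 (adjusted p = 1.0 by RRA on the low side in both comparisons with T0). Without T0 replicate 1 these medians were −0.19 and −0.22, and without T0 replicate 2 they were −0.30 and −0.0615. HGLibB_15767, its lowest guide, had raw counts of 115 and 179 at T0, 36, 0 and 29 with DMSO, and 19, 16 and 2 with GSI.

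EXOSC9 was the barrel subunit whose guides were most evenly split. Mean normalized counts per guide were 115 and 141 at T0, 109, 76.6 and 79.7 with DMSO, and 104, 104 and 99.7 with GSI, all below T0. The middle value of its guides' log2 fold changes was nevertheless positive, at 0.49 in DMSO against T0 and 0.30 in GSI against T0. The most abundant guide, HGLibA_15797, had raw counts of 380 and 558 at T0, 160, 81 and 102 with DMSO and 197, 368 and 178 with GSI. HGLibA_15796 had 10 and 9 at T0, 96, 84 and 70 with DMSO, and 69, 40 and 147 with GSI. In DMSO against T0, 3 of the 6 guides lay above both T0 libraries in every DMSO library and 2 lay below both, so the sign of the subunit turned on whether guides or counts were averaged: edgeR on summed counts gave −0.53 (adjusted p = 0.523). The median was 0.38 and 0.18 in DMSO and GSI against T0 without T0 replicate 1, and 0.24 and 0.0032 without T0 replicate 2.

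The cap subunits had medians of −0.85 for EXOSC1, −0.54 for EXOSC2 and −0.69 for EXOSC3 in DMSO against T0, and none passed (adjusted p = 0.888, 0.809 and 1.0 by RRA on the low side). Over their 18 guides the median was −0.63, against −0.90 over the 34 barrel guides and −0.09 over the 6 guides against EXOSC10. In GSI against T0 the cap and barrel guides stood level, at −0.59 and −0.58, and those against EXOSC10 at −0.08. These are descriptions, and the difference between cap, barrel and exonuclease was not tested.

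EXOSC1, a cap protein, had the highest mean counts of all subunits in each group, although EXOSC3 was higher in DMSO replicate 2 (148 against 129). Mean normalized counts per guide of EXOSC1 were 240 and 267 at T0, 205, 129 and 125 with DMSO, and 167, 163 and 115 with GSI. Every day 14 library was thus below both T0 libraries. HGLibA_15769 had raw counts of 158 and 606 at T0, 53, 106 and 58 with DMSO, and 72, 119 and 149 with GSI, with a log2 fold change of −2.27 in DMSO against T0 (unadjusted p = 0.00888 from edgeR). The median of the gene in DMSO against T0 was −0.80 without T0 replicate 1 and −0.29 without T0 replicate 2. The same medians in GSI against T0 were −0.53 and −0.18.

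EXOSC2 (chromosome 9, 130693721 to 130707288), which lines the entry of the channel, had mean normalized counts per guide of 140 and 86.7 at T0, 78.2, 58.4 and 92.8 with DMSO, and 65.8, 94.0 and 48.4 with GSI, with overlap. HGLibA_15774 had raw counts of 49 and 41 at T0, 2, 0 and 0 with DMSO, and 20, 18 and 0 with GSI. HGLibA_15775 had 216 and 244 at T0, 49, 56 and 83 with DMSO, and 70, 104 and 106 with GSI. These were the guides of EXOSC2 that lay below T0 in every library of both arms. Without T0 replicate 1 the median of EXOSC2 was 0.17 in DMSO against T0 and −0.030 in GSI against T0, and without T0 replicate 2 it was −1.35 and −1.03.

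EXOSC3 (chromosome 9, 37759234 to 37832117), also of the cap, had mean normalized counts per guide of 150 and 118 at T0, 71.4, 148 and 91.9 with DMSO, and 99.7, 117 and 105 with GSI. DMSO overlapped T0, and GSI lay below it by a narrow margin. No guide of EXOSC3 was below T0 in every DMSO library, and its lowest one, HGLibB_15757, had raw counts of 221 and 2 in the T0 aliquots themselves. The median of EXOSC3 in DMSO against T0 was −0.14 without T0 replicate 1 and −0.26 without T0 replicate 2. The corresponding values in GSI against T0 were −0.40 and −0.21.

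Guides against EXOSC10, the nuclear exonuclease of the complex, showed no common direction. Mean normalized counts per guide were 88.4 and 70.4 at T0, 73.8, 85.9 and 92.1 with DMSO, and 73.4, 88.3 and 84.1 with GSI. The median was −0.09 in DMSO against T0 and −0.08 in GSI against T0 (adjusted p = 1.0 by RRA on the low side in each), with single guides from −2.61 to 2.87 in the former. Without T0 replicate 1 these medians were 0.58 and 1.87, and without T0 replicate 2 they were −0.80 and −0.90. The guide HGLibB_15751 had raw counts of 23 and 14 at T0, 81, 185 and 90 with DMSO, and 61, 78 and 104 with GSI, above T0 in every library.

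The comparison of GSI with T0 put the same question under the inhibitor and used the same T0 libraries. Guides against 9 of the 10 subunits had a negative median, against 51.3% of all genes, and EXOSC9 at 0.30 was the exception. No subunit passed. EXOSC5 and EXOSC8 again had the most negative medians, at −1.21 and −1.11, followed by EXOSC2 at −0.81, EXOSC7 at −0.63 and EXOSC1 at −0.58. EXOSC3 stood at −0.46, EXOSC4 at −0.22, EXOSC10 at −0.08 and EXOSC6 at −0.05.

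The median over the 58 guides was −0.54, with quartiles of −1.50 and 0.20, against −0.02 for all guides of genes. A negative value was found for 40 of the 58 guides (69%), against 51% of all guides. A fold change under −1 was found for 21 guides (36.2%), against 16.1% of all guides. All 3 GSI libraries lay below both T0 libraries for 16 guides, against 13.8%, and above both for 5, against 15.7%. The same median was −0.63 for ribosomal protein guides and 0.10 for olfactory receptor guides. The exosome median was −0.46 without T0 replicate 1, −0.57 without T0 replicate 2, and −0.70 without GSI replicate 1, the library with the dominant guide. The median of all guides under these settings is not given here. In DMSO against T0 that median rose when either T0 aliquot was left out, so the values are not directly comparable. The exosome median was weaker with another library left out. It turned slightly positive when the replicate number entered the model as a block, as given in the closing section.

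RRA on edgeR guide tests called 0 subunits on either side, against 0% of genes on each. With an unadjusted p under 0.05 there were 2 on the low side, against 5.69% of genes, and 0 on the high side, against 5.39%. These were EXOSC6 with an exact RRA p of 0.00125 (adjusted p = 0.371) and EXOSC8 with one of 0.0329 (adjusted p = 0.812). EXOSC6 had rank 57 of 18570 genes on the low side with a median of −0.049. RRA scores the top-ranked guides of a gene, and HGLibB_15764 at −6.41 and HGLibA_15788 at −3.44 lay below T0 in every GSI library. Counts summed per gene gave EXOSC6 a log2 fold change of −0.60 (adjusted p = 0.510 from edgeR) and EXOSC5 one of −1.46 (adjusted p = 0.0981 from edgeR), with 0 subunits called against 0.118% of genes lower and 0.00539% higher. Mean normalized counts were below both T0 libraries in every GSI library for EXOSC1, EXOSC3, EXOSC5, EXOSC8 and EXOSC9, 5 of 10, against 19.2% of genes, and above both for 0, against 11.4%.

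For single guides, edgeR called 0 of 58 in either comparison with T0, against 0% of all guides. Without adjustment, 9 had p under 0.05 on the low side and 3 on the high side in DMSO against T0, against 3.6% and 4.21% of all guides. In GSI against T0 there were again 9 and 3, against 4.11% and 4.72%. DESeq2 called 8 exosome guides lower and 3 higher in DMSO against T0, against 2.14% and 3.62% of all guides. In GSI against T0 it called 7 lower and 3 higher, against 2.56% and 4.28%. Leaving out T0 replicate 1, edgeR called 6 exosome guides lower and 2 higher in DMSO against T0, against 0.954% and 6.24% of all guides, and 10 lower and 3 higher in GSI against T0, against 4.14% and 14%. Leaving out T0 replicate 2, it called 0 on either side in DMSO against T0, against 0.011% and 0.0064%, and 3 lower and 1 higher in GSI against T0, against 1.24% and 3.55%. With 1 T0 library left, that library is assumed to vary like the others. The 8 guides that DESeq2 called lower in DMSO against T0 were spread over EXOSC1, EXOSC2, EXOSC4, EXOSC5, EXOSC6, EXOSC8 and EXOSC9. None of these guides was directed at EXOSC3, EXOSC7 or EXOSC10.

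The A and B parts of the library gave different medians, a difference that was not tested. In DMSO against T0 the 29 guides of part A had a median of −0.38 and the 29 of part B one of −0.93. In GSI against T0 the medians were −0.34 and −0.67. A fold change under −1 was found for 10 guides of part A and 14 of part B in DMSO against T0.

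The comparison of GSI with DMSO at day 14 addressed which gene losses change how these cells grow under the inhibitor. Exosome guides had a median log2 fold change of 0.06, against −0.02 for all guides of genes, and 5 of the 10 subunits had a negative median, against 52.7% of all genes. A negative value was found for 27 of the 58 guides, against 51.4% of all guides, and a fold change under −1 for 1, against 5.53%. All GSI libraries lay below all DMSO libraries for 2 guides, against 4.37%, and above them for 4, against 4.69%. EXOSC4 had the highest median at 0.81 ± 0.887 (SD over 6 guides), followed by EXOSC5 at 0.49 ± 0.570. EXOSC7 had the lowest at −0.28 ± 0.583, followed by EXOSC9 and EXOSC10 at −0.25 each. The libraries of the GSI and DMSO arms overlapped in the mean normalized counts of every subunit, against 5.85% of genes lower and 3.7% higher in every GSI library.

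RRA on edgeR guide tests called 0 of the 10 subunits on either side, against 0% of genes, and 0 were at an unadjusted p under 0.05 on either side, against 5.06% and 4.99% of genes. RRA on DESeq2 guide tests and edgeR on summed counts called 0 as well. The lowest p was that of EXOSC8 on the high side, at 0.0644 (adjusted p = 0.968 by RRA), with a median of 0.06. A p over the threshold does not show that the subunits act alike in both arms, and the guides of a subunit spread by 0.486 (SD, EXOSC1) to 1.80 (SD, EXOSC2) on the log2 scale. With library totals in place of size factors the exosome median was −0.21 and that of all guides −0.22. Without GSI replicate 1 the exosome median was 0.04, and without GSI replicate 3 it was −0.0024.

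A pair of exosome guides was higher with GSI at an unadjusted p under 0.05, against 1.55% of all guides, and none was lower, against 1.49%. HGLibB_15770 against EXOSC8 had raw counts of 14, 0 and 8 with DMSO and 11, 142 and 76 with GSI, and counts of 155 and 4 at T0 (log2 fold change 3.08, unadjusted p = 0.0170 from edgeR). GSI replicate 1 of this guide lay within the DMSO range. HGLibA_15797 against EXOSC9 was above DMSO in every GSI library (log2 fold change 1.03, unadjusted p = 0.0320 from edgeR). Neither was called after adjustment.

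A level per library was also taken, as the median over the 58 guides of log2(normalized count + 1), with the T0 average set to 0. It was 0.16 and −0.16 at T0, −0.41, −0.68 and −0.39 with DMSO, and −0.24, −0.47 and −0.61 with GSI. Every day 14 library was thus below both T0 aliquots, and the arms overlapped, with means of −0.50 ± 0.16 under DMSO and −0.44 ± 0.19 under GSI (SD over 3 libraries). Guides against ribosomal proteins stood at −1.08 ± 0.16 and −0.78 ± 0.12, and olfactory receptor guides at 0.14 ± 0.02 and 0.13 ± 0.06. Guides against the exosome nucleases and cofactors described below stood at −0.27 ± 0.13 and −0.22 ± 0.05. Those against factors of other RNA decay routes, also below, stood at −0.34 ± 0.06 and −0.30 ± 0.01. For the ribosomal protein, cofactor and decay lists every day 14 library was likewise below both T0 aliquots. For olfactory receptor guides every day 14 library was above both.

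The partners of the exosome were taken from a list of 20 nucleases and cofactors, of which 19 had guides. None was called by RRA in any comparison. Those with an unadjusted p under 0.05 numbered 1 on the low and 1 on the high side in DMSO against T0, 4 and 1 in GSI against T0, and 0 and 1 in GSI against DMSO, of 19 each. The shares over all genes were 6.12% and 5.3%, 5.69% and 5.39%, and 5.06% and 4.99%, in the same order. Over their 114 guides the median was −0.21 with DMSO and −0.11 with GSI against T0, and 0.06 for GSI against DMSO.

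The catalytic subunit DIS3 had mean normalized counts per guide of 150 and 76.2 at T0, 59.9, 120 and 89.2 with DMSO, and 73.6, 110 and 83.9 with GSI, all within the range of T0 except 59.9 in DMSO replicate 1 and 73.6 in GSI replicate 1. Its median was −0.35 ± 1.73 in DMSO against T0 and −0.12 ± 0.937 in GSI against T0 (SD over 6 guides, adjusted p = 1.0 by RRA on the low side in each). DIS3L, its cytoplasmic paralogue, stood at −0.41 and −0.45 (adjusted p = 1.0 by RRA on the low side in each).

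SKIV2L2, also known as MTR4, the nuclear helicase that feeds RNA to the exosome, had a median of −0.91 in DMSO against T0 (adjusted p = 0.831 by RRA) and −0.86 in GSI against T0 (adjusted p = 0.525 by RRA), with 5 of 6 guides negative in each. WDR61, a member of the cytoplasmic SKI complex, stood at −1.45 in GSI against T0 (adjusted p = 0.789 by RRA), and NCBP1 of the nuclear cap-binding complex at −1.25 in DMSO against T0 (adjusted p = 0.662 by RRA). PAPD7, a poly(A) polymerase related to that of the TRAMP complex, stood at 0.87 and 0.84 against T0 (adjusted p = 0.936 and 0.891 by RRA). In GSI against DMSO the lowest p-values were those of HBS1L on the high side (0.51, adjusted p = 0.968 by RRA), C1D on the low side (−0.56, adjusted p = 0.972 by RRA) and MPHOSPH6 on the high side, although its median was −0.056 (adjusted p = 0.968 by RRA). C1D and MPHOSPH6 are cofactors of EXOSC10.

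The list of 38 factors of other RNA decay routes, of which 37 had guides, gave 0 calls by RRA. Those with an unadjusted p under 0.05 numbered 7 low and 2 high in DMSO against T0, 5 low and 1 high in GSI against T0, and 1 low and 5 high in GSI against DMSO, of 37 each. Over all genes 6.12% were low and 5.3% high in the first, 5.69% and 5.39% in the second, and 5.06% and 4.99% in the last. The 5 in GSI against DMSO included XRN1, the cytoplasmic exonuclease that degrades RNA from the opposite end, at 0.96 ± 1.09 (SD over guides, adjusted p = 0.536 by RRA), and CNOT1, the scaffold of the main deadenylase, at 0.71 ± 1.60 (adjusted p = 0.536 by RRA). XRN1 had mean normalized counts per guide of 67.2, 51.5 and 59.2 with DMSO and 82.1, 84.8 and 96.9 with GSI. CNOT1 had 68.5, 74.9 and 68.3 with DMSO and 99.2, 112 and 120 with GSI. Against T0, the median of XRN1 was −0.99 with DMSO and −0.13 with GSI, and that of CNOT1 was −1.23 and −0.11. The arms did not overlap for either gene, while 3.7% of all genes were higher in every GSI library. Both genes were named for their low p in these same libraries, so the lack of overlap is no separate evidence. CNOT2, another subunit of the main deadenylase, was next on the high side by p although its median was −0.19 (adjusted p = 0.963 by RRA). Against T0, LSM5 stood at −1.45, CNOT3 at −1.17 and CNOT8 at 1.15 with DMSO (adjusted p = 0.640 and 0.627 by RRA on the low side and 0.881 on the high side). LSM4 stood at −0.12 with GSI (adjusted p = 0.550 by RRA on the low side). PARN had its lowest p on the high side with GSI although its median was −0.34 (adjusted p = 0.883 by RRA). Over the list's 218 tested guides the median was −0.42 with DMSO and −0.21 with GSI against T0, and 0.06 for GSI against DMSO. A fold change under −1 was found for 30.3% of them with DMSO and 28% with GSI against T0. The shares of all guides were 17.8% and 16.1%.

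The genes whose mean log2 level over guides followed the mean of the 10 subunits most closely across the 8 libraries were PCNA, the DNA polymerase clamp (Pearson's r = 0.978), TRAPPC3 of the vesicle tethering complex (0.975) and MRPL13 of the mitochondrial ribosome (0.974), out of 18560 genes compared. These 8 points share the contrast between T0 and day 14 and the depth of each library, so the values are a description. Among the subunits themselves, the correlation of each with the mean of the other 9 ran from −0.33 for EXOSC9 to 0.78 for EXOSC6.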

How the data were processed

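Guide abundance was read from sequenced PCR products of genomic DNA. Per the labels and the study's methods, the authors used bcl2fastq 2.19 and FastQC 0.11.5 on the reads and MAGeCK 0.5.9.2 to count them per guide. Their deposited raw counts were used here. A normalized table holds the same counts times 1 constant per library and was not used.

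Guides averaging 10 or more counts over 8 libraries entered the tests (116852, 97.8%). In R 4.3.3, edgeR 4.0.16 with limma 3.58.1 fitted the raw counts by quasi-likelihood (glmQLFit, glmQLFTest), with median-ratio size factors and only the groups compared. Robust rank aggregation (RRA, alpha 0.25) combined guides into genes with at least 4 tested guides, each side apart. Its p came from the exact distribution of the statistic under uniform ranks, adjusted by Benjamini-Hochberg over 18570 genes. MAGeCK's own test was not run. Alternatives were TMM, library totals, control-based factors, no filter or a mean of at least 50, DESeq2 1.42.0, counts summed per gene, alpha 0.1, a joint fit, the replicate block, means over guides, the A or B part alone (at least 3 guides per gene) and each library left out. P-values measure the spread between cultures or aliquots of 1 pool. The code was tested on simulated data. The text names all 10 subunits, DIS3 and DIS3L, and per list and comparison the 3 genes with the lowest p. A decay factor that this rule names is not reported here. Members, lists and rules were chosen with earlier results of these data known. Gene positions came from GENCODE v44. Guide sequences were not analysed here.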

Additional observations from a re-analysis of the deposited data

How the results depend on the processing

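No subunit was called by RRA under any alternative, and only edgeR on counts summed per gene called any, 1 in DMSO against T0 and 0 in the other comparisons. Among exosome guides, DESeq2 called 11 in DMSO against T0 and 10 in GSI against T0, in place of 0. Leaving out 1 library gave 0 to 8 and 0 to 13 (8 and 13 without T0 replicate 1, 4 in GSI against T0 without T0 replicate 2), when edgeR called 8349, 21097 and 5508 of all guides. The guide counts under alternatives were chosen after seeing the data. 

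The median over exosome guides in DMSO against T0 was −0.98 with control-based factors, −0.38 with a mean count of at least 50 and −0.38 with library A guides, and −0.75 to −0.15 with 1 library left out. In GSI against T0 it was −0.70 to −0.35 with 1 library left out. In GSI against DMSO it was −0.21 with library totals, −0.21 with library B guides, 0.26 as a mean, and −0.0024 to 0.24 with 1 library left out. With the replicate block it was −0.30 in DMSO against T0 and 0.028 in GSI against T0, where all guides stood at 0.16 and 0.19, and no subunit was called. The numbers are not known to pair the libraries: deviations of DMSO and GSI libraries with the same number correlated at 0.28, 0.0644 and 0.121, each library best with its own number. T0 libraries correlated with those of the same number at 0.00579 and −0.00128 for DMSO and at 0.0249 and −0.0122 for GSI. The median over exosome guides with the block in GSI against DMSO is not given here.

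The direction of a subunit's median, none of which was called, turned in these cases, and the cause was not tested. With library A guides it was 0.35 for EXOSC1 in DMSO against T0, and 0.0602 for EXOSC4 in GSI against T0, and 0.81 for EXOSC10, 0.25 for EXOSC7 and 0.091 for EXOSC9 in GSI against DMSO. With library totals it was −0.092 for EXOSC1 and −0.32 for EXOSC8 in GSI against DMSO. With counts summed per gene it was 0.0798 for EXOSC10, −0.57 for EXOSC6 and −0.53 for EXOSC9 in DMSO against T0, and 0.046 for EXOSC10 and −0.32 for EXOSC9 in GSI against T0, and −0.04 for EXOSC1, −0.14 for EXOSC2, 0.049 for EXOSC3, 0.0097 for EXOSC7 and 0.22 for EXOSC9 in GSI against DMSO. With library B guides it was 0.44 for EXOSC10, 0.60 for EXOSC2, 0.28 for EXOSC3 and −0.28 for EXOSC9 in DMSO against T0, and 0.22 for EXOSC10 in GSI against T0. As means over guides it was −1.94 for EXOSC6 in DMSO against T0, and 0.015 for EXOSC10 and 0.17 for EXOSC5 in GSI against T0, and 0.12 for EXOSC10 and 0.34 for EXOSC6 in GSI against DMSO. With the replicate block it was 0.29 for EXOSC10, 0.11 for EXOSC2, 0.71 for EXOSC6 and 0.33 for EXOSC7 in GSI against T0, and −0.30 for EXOSC2 and 0.10 for EXOSC7 in GSI against DMSO. With a mean count of at least 50 it was −0.28 for EXOSC9 in DMSO against T0, and 0.11 for EXOSC6 and 0.092 for EXOSC7 in GSI against T0, and −0.20 for EXOSC2 and 0.091 for EXOSC9 in GSI against DMSO. With control-based factors it was −0.19 for EXOSC6 in DMSO against T0. With no count filter it was 0.11 for EXOSC6 in GSI against T0. With 1 library left out, the range in DMSO against T0 was −0.80 to 0.58 for EXOSC10, −1.35 to 0.17 for EXOSC2, −2.46 to 3.05 for EXOSC5 and −0.80 to 0.30 for EXOSC6. With 1 library left out, the range in GSI against T0 was −0.90 to 1.87 for EXOSC10, −0.82 to 0.098 for EXOSC4 and −1.48 to 3.36 for EXOSC5. With 1 library left out, the range in GSI against DMSO was −0.11 to 0.30 for EXOSC1, −0.32 to 0.19 for EXOSC10, −0.0041 to 0.43 for EXOSC2, −0.48 to 0.31 for EXOSC3, −0.28 to 0.29 for EXOSC6, −0.48 to 0.21 for EXOSC7, −0.27 to 0.56 for EXOSC8 and −0.45 to 0.017 for EXOSC9. RRA on the other alternatives (TMM, DESeq2, a joint fit, alpha 0.1) turned no direction. T0 guide counts, which differ between the aliquots, limit the comparisons with T0.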
